A study of Mus with 9 samples.

Results

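The Zic genes encode a small family of zinc finger transcription factors, and 4 of them, Zic1, Zic2, Zic4 and Zic5, were followed across the hippocampus of 3 groups of mice. They were found by their gene symbols in both deposited tables, where each has 1 probe set (the short probes that stand for a gene on the array) among 22206 probe sets naming 22662 gene symbols. Zic1 was chosen by its low average with trigonelline (TG), Zic4 because it lies beside Zic1 on chromosome 9, and Zic2 and Zic5 by their family name. The differences of Zic1 below are therefore a description.

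The SAMP8 mouse is an inbred strain with early decline of learning and memory, and SAMR1 is a related inbred strain with normal aging that served as the control, so that a difference between them is one between strains and not the effect of a single allele. Male SAMP8 mice were 16 weeks old and received either vehicle or TG, a plant alkaloid found in coffee and fenugreek, given orally in a daily dose of 5 mg/kg over 30 days and through 8 further days of water maze testing. SAMR1 mice received vehicle, which is water in the methods and saline in the sample records. Hippocampal RNA of 3 randomly selected mice per group was hybridized to Clariom S Mouse arrays, 9 in all. A note attached to each record speaks of a macrophage cell line and was set aside, as was a line in the series text that speaks of duplicate RNA samples.

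ZIC proteins bind DNA through zinc fingers related to those of the GLI factors, which carry the hedgehog signal into the nucleus. In the embryo they mark the dorsal neural tube and the neural crest, and mutation of Zic2 is a known cause of holoprosencephaly, in which the forebrain does not divide. In the adult brain, Zic1 is known from cerebellar granule cells, from neurons of the septum and thalamus, and from the meninges, the membranes that cover the brain. Zic1 and Zic4 lie next to each other in the genome, as do Zic2 and Zic5. Principal neurons of the hippocampus are not among the cells known for high Zic expression.

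The deposited values are the authors' averages per group in log2 signal, so that a difference of 1 is 2-fold. They come without a spread between mice, and the p-values of the authors' own comparisons were not used, so the differences below are given with no replicate error and no test. Which neighbours in an order of group levels are distinct was likewise not tested. Each difference was read against the same difference over all probe sets. The SAMP8 averages were identical in both tables for all 22206 probe sets, and the median probe set stood at 6.09 for SAMR1, 6.04 for SAMP8 and 6.07 with TG. The labelled tissue was checked on hippocampal neuron genes: Neurod6, a factor of pyramidal neurons, averaged 14.86 in SAMR1, 14.85 in SAMP8 and 14.88 with TG, and Prox1, the factor that marks dentate granule cells, averaged 11.26, 11.85 and 11.00 in that order.

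Zic1 lies on chromosome 9 from 91358058 to 91365768 (GRCm38, RefSeq), a span of 7711 bases. Its group average was 10.91 in SAMR1, 11.47 in nontreated SAMP8 and 9.56 with TG. The order of levels was thus SAMP8, SAMR1, TG-treated SAMP8, and the TG group stood below both groups that received vehicle. The average with TG differed from that of SAMP8 by -1.91 log2 units, or 3.76-fold, and from that of SAMR1 by -1.35, or 2.55-fold. Of all probe sets, 3 had a difference as low as that of Zic1 between TG-treated and nontreated SAMP8, Zic1 included. The others were Ptgds, a prostaglandin D synthase of meningeal and glial cells, at -2.69, and Acta2, the actin of smooth muscle, at -2.17. Compared with SAMR1, SAMP8 was 0.56 higher, or 1.47-fold, and 5.72% of all probe sets and 7.98% of those nearest in signal lay as high or higher. The comparisons share arrays, because the average that is high in SAMP8 enters both the strain and the TG difference, and the low TG average enters both differences from it.

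Zic2 lies on chromosome 14 from 122475384 to 122480328. It averaged 5.89 in SAMR1, 6.08 in SAMP8 and 5.25 with TG, which is the same order of groups as for Zic1 on a smaller scale. The average with TG differed from SAMP8 by -0.83 and from SAMR1 by -0.64. These are differences in signal, and no fold is given, because the TG average was under 5.37, the limit used below for background signal, while the averages of SAMR1 and SAMP8 were above it. For the difference from SAMP8, 0.91% of all probe sets and 0.798% of the probe sets nearest in mean signal were as low. For the difference from SAMR1 the corresponding values were 3.85% and 6.99%. The strain difference of 0.19 in favour of SAMP8 was ordinary by the same measure, since 27.7% of all probe sets were as high.

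Zic4 lies on chromosome 9 from 91365631 to 91389351, and its RefSeq gene model overlaps that of Zic1 by 138 bases. It averaged 4.27 in SAMR1, 4.50 in SAMP8 and 4.47 with TG. The averages of SAMP8 with and without TG thus differed by -0.03, where its neighbour Zic1 differed by -1.91, and Zic4 was 0.23 higher in SAMP8 than in SAMR1. After quantile normalization of the averages these differences of Zic4 were -0.10 and 0.35. As many as 45.1% of all probe sets were as low or lower between TG-treated and nontreated SAMP8, and 23.8% were as high or higher between SAMP8 and SAMR1.

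Zic5 lies on chromosome 14 from 122459160 to 122465658, and 9725 bases separate it from Zic2. Its averages were 4.78 in SAMR1, 4.68 in SAMP8 and 4.75 with TG, a range of 0.10 over all 3 groups. The TG group differed by 0.07 from SAMP8 and by -0.03 from SAMR1, and SAMP8 differed from SAMR1 by -0.10. The signs of both negative differences turned when the averages were corrected for signal or quantile normalized, so no direction is given for Zic5.

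**Figure D1:**
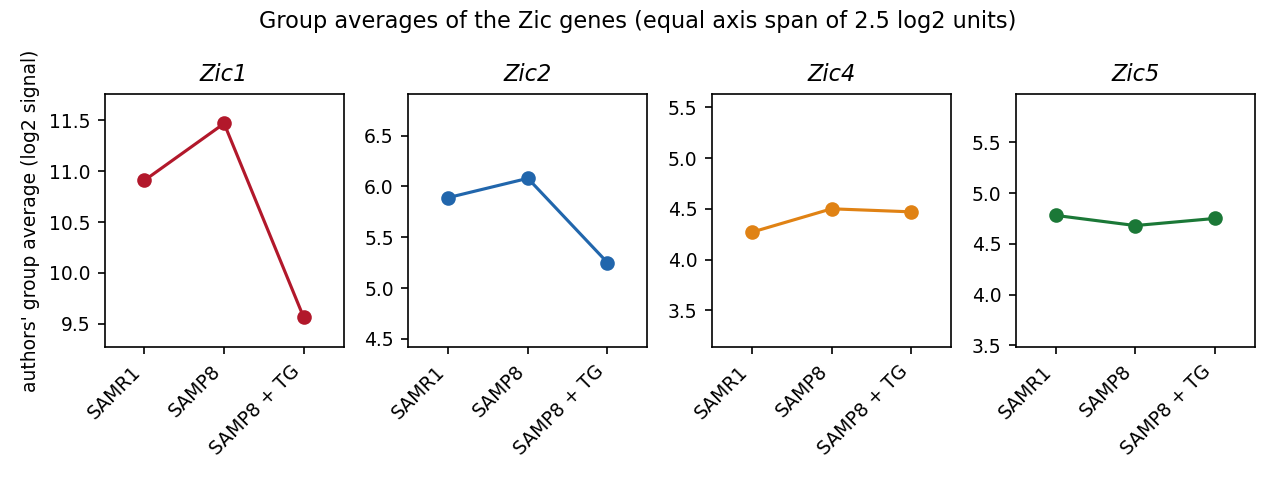
Authors' group averages (log2 signal, y axis) of Zic1, Zic2, Zic4 and Zic5 by group (x axis, SAMR1, SAMP8 and SAMP8 with TG), each panel spanning the same height. Points are group averages without error bars, since no spread was used, and lines join the groups. Zic1 is at 11.47 in SAMP8 and 9.56 with TG and Zic2 at 6.08 and 5.25, while the averages of Zic4 span 0.23 and those of Zic5 0.10.

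Counted over the 4 members, 1 (Zic1) was at least 2-fold lower with TG than in nontreated SAMP8 and 0 were 2-fold higher, while 0.342% of all probe sets were 2-fold lower and 0.473% higher. At 1.5-fold in signal, 2 of the 4 (Zic1 and Zic2) were lower, against 3.74% of all probe sets, and for Zic2 this is a count of signal alone, its TG average being under 5.37. Since Zic1 entered for this difference, its part in these counts is fixed by the choice. The median of the 4 differences was -0.43, and that of all probe sets was 0.01.

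Between SAMP8 and SAMR1, 0 of the 4 members were 2-fold higher or lower, where 0.838% of all probe sets were higher and 1.47% lower. At 1.2-fold 1 member, Zic1, was higher in SAMP8, against 20.4% of all probe sets. The median over the members was 0.21, beside 0.00 over all probe sets. Between TG-treated SAMP8 and SAMR1, 1 of 4 (Zic1) was 2-fold lower and 0 were 2-fold higher, beside 0.712% and 1.13% of all probe sets. At 1.5-fold in signal, 2 of 4 (Zic1 and, with the same limit, Zic2) were lower than in SAMR1, beside 4.83% of all probe sets. The median over the members in this comparison was -0.34. Zic1 was chosen by its low TG average, which enters this comparison too. Its part in these counts and in the median is therefore not independent of the choice.

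**Figure D2:**
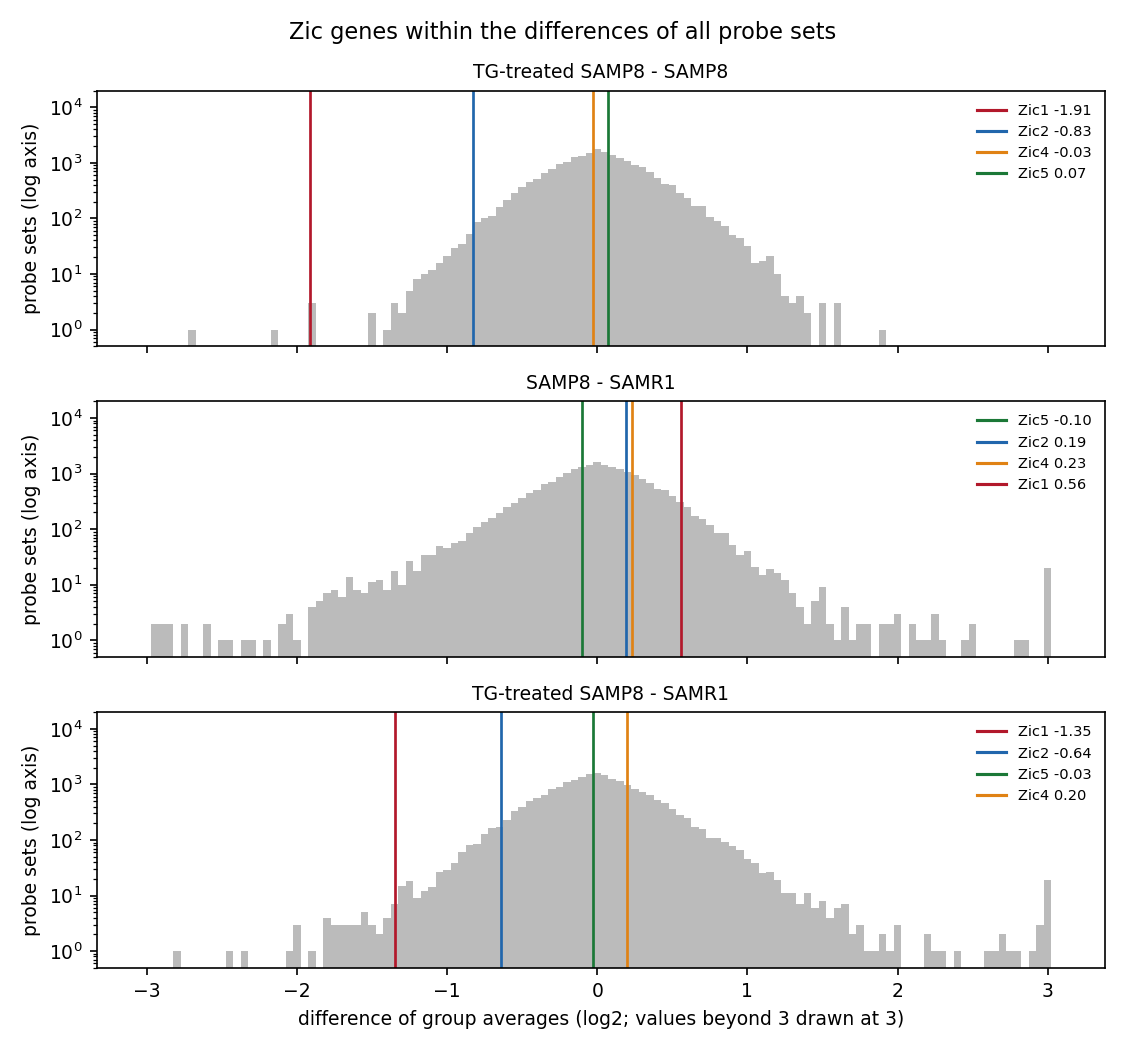
Differences of group averages (log2, x axis) for all 22206 probe sets as grey histograms (y axis, number of probe sets on a log axis), in 3 panels for the 3 comparisons, with a coloured line for each Zic gene. In the upper panel Zic1 at -1.91 lies outside the bulk of the probe sets and Zic2 at -0.83 in its lower tail, while Zic4 at -0.03 and Zic5 at 0.07 lie in the middle.

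The signal of the probe sets bears on how these differences can be read. No detection call was used, and levels of different probe sets are not comparable as amounts of RNA, so the 1079 probe sets of olfactory receptor genes, which are expected to be nearly silent in the hippocampus, served as a gauge of background. Their mean signals had a median of 4.05, and 5.37 was their 95th percentile. The mean signal of Zic1, at 10.65, lay above that limit, as did each of its group averages. That of Zic2, at 5.74, lay above it through SAMR1 and SAMP8 alone, since its TG average of 5.25 was under the limit. The mean signals of Zic5 (4.74) and Zic4 (4.41) lay below it. For Zic4, 69.1% of the olfactory receptor probe sets had a lower mean signal, and for Zic5 81.8%. A small difference of Zic4 or Zic5 therefore does not show that their RNA was the same in all groups, and a lower level with TG may not be measurable there. Between TG-treated and nontreated SAMP8, 5% of the olfactory receptor probe sets lay below -0.43 and 5% above 0.61. Averages under 5.37 given below for other genes are within the range of this background too, and a difference or fold that involves one is a difference in signal with no direction of RNA read from it.

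The genes around the Zic loci were examined to see whether the differences ran along the chromosome. On chromosome 9 the nearest measured genes lie far away, with Plscr5, a phospholipid scramblase gene, 797.2 kb beyond Zic4 and Tbc1d2b, which encodes a regulator of RAB GTPases, 1087.3 kb before Zic1. Over the 10 nearest genes (5 on each side), the differences between TG-treated and nontreated SAMP8 ran from -0.54 for Rasgrf1, a RAS activator of neurons, to 0.71 for Plscr5. The difference of Zic1 was lower than that of each of these 10. Zic1 was chosen for this difference, so this order was set by the choice. Tbc1d2b itself averaged 6.80 in SAMR1, 6.84 in SAMP8 and 6.69 with TG.

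At the Zic2 and Zic5 locus on chromosome 14 the neighbours are closer. Gm5089, a long noncoding RNA gene 8.0 kb before Zic5, averaged 6.88 in SAMR1, 6.34 in SAMP8 and 6.79 with TG, so that it was lowest in the group in which Zic2 was highest. Pcca, which encodes a subunit of the mitochondrial propionyl-CoA carboxylase, lies 4.0 kb beyond Zic2 and averaged 8.13, 8.89 and 8.51 in the same order of groups. Pcca shared with Zic2 the high SAMP8 average, but its TG average remained above that of SAMR1. Over the 10 nearest genes the differences between TG-treated and nontreated SAMP8 ran from -0.54 for Nalcn, a sodium leak channel, to 0.66 for Ggact, and Zic2 at -0.83 was lower than each of them.

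**Figure D3:**
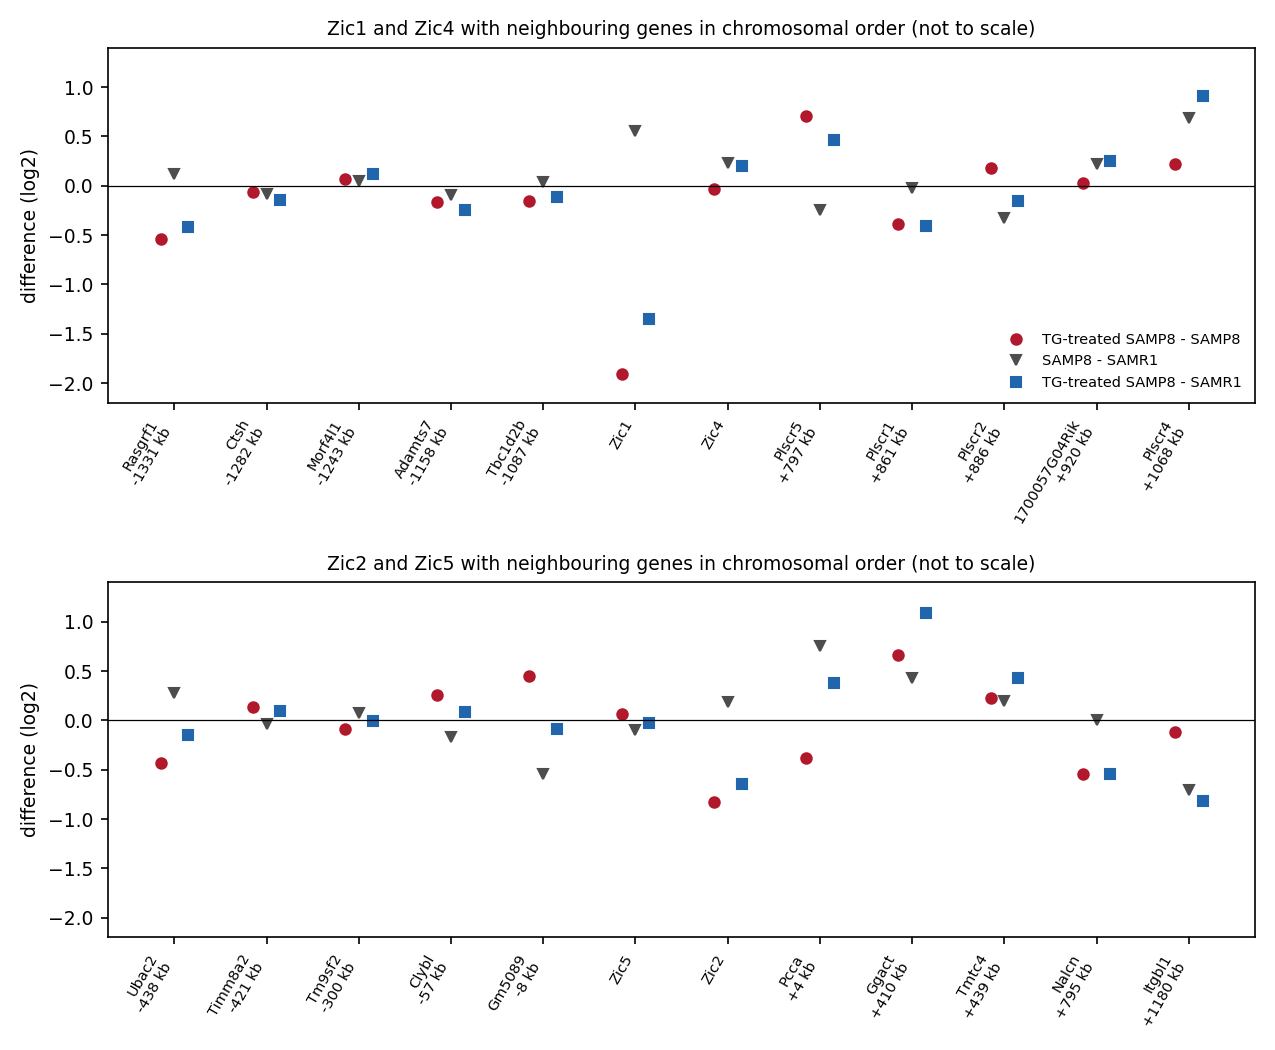
Differences of group averages (log2, y axis) for Zic1 and Zic4 (upper panel) and for Zic2 and Zic5 (lower panel) with the 5 nearest measured genes on each side in chromosomal order (x axis, distance from the Zic pair in kb, not to scale). Symbols stand for the 3 comparisons. Zic1 at -1.91 and Zic2 at -0.83 are the lowest circles of their panels, and Zic4 and Zic5 beside them lie at -0.03 and 0.07. Zic1 was chosen for this difference.

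The genes whose pattern over the 3 groups was most like that of Zic1 were sought among 17518 named probe sets, by the Euclidean distance between the strain and TG differences of each gene and those of Zic1. The nearest was Esp31, which encodes a gland-secreted peptide, at a distance of 0.46, with averages of 4.16 in SAMR1, 4.91 in SAMP8 and 3.42 with TG. All 3 averages of Esp31 were under the background limit of 5.37. Next came Prkcd, a protein kinase C isoform abundant in thalamic neurons, at 0.56, with averages of 10.85, 11.03 and 9.53. Arel1, a ubiquitin ligase that limits apoptosis, followed at 0.57, Glb1l, a relative of beta-galactosidase, at 0.59, and Actn4, an actin crosslinker, at 0.62. The likeness rests on 3 group averages, and Prkcd, Arel1, Glb1l and Actn4 are among the genes the study singled out from these arrays. No rank is given for the other members, since the TG average of Zic2 and all averages of Zic4 and Zic5 were under 5.37.

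The closest relatives of the ZIC proteins are the GLI and GLIS factors. Of their 6 genes, 5 were higher and 1 lower with TG than in nontreated SAMP8, 0 differed by 2-fold, and the median was 0.08 (0.01 after quantile normalization) beside 0.01 for all probe sets and 0.06 for the olfactory receptor probe sets. Over all probe sets, 50.0% were higher and 48.3% lower in this comparison, the shares against which this and the following counts can be read. The 5 that were higher were so by 0.01 to 0.12, and Gli2 and Glis2 among them had all their averages under 5.37. Gli3, whose processed form represses hedgehog targets, had the highest signal of the 6 and was lowest with TG, with averages of 7.63 in SAMR1, 7.28 in SAMP8 and 6.98 with TG. Gli1, a standard readout of hedgehog signalling, averaged 5.19, 5.58 and 5.66 in the same order.

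Among 14 other genes of the hedgehog pathway, 6 were higher and 8 lower with TG, with a median of -0.04. Of these, 1 was 2-fold lower with TG and 2-fold higher in SAMP8 than in SAMR1: Hhat, the acyltransferase that adds palmitate to hedgehog ligands, with averages of 5.47 in SAMR1, 6.51 in SAMP8 and 5.49 with TG. Its TG average returned to that of SAMR1, whereas the TG average of Zic1 lay below it. The receptor Ptch1, also a target of the pathway, averaged 8.74, 9.17 and 9.11, and the coreceptor Cdon 8.12, 7.66 and 7.77.

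The transcription factors and signals that surround Zic genes in the dorsal neural tube and neural crest had no low TG average as a list. With TG 13 of 15 were higher and 2 lower than in nontreated SAMP8, with a median of 0.13 and differences from -0.18 to 0.69, and 0 were 2-fold apart. Most had low signal, the median was 0.06 after quantile normalization, and the olfactory receptor probe sets had a median of 0.06 in the same comparison. Sox10, a factor of neural crest and oligodendrocytes, had the widest difference, from 5.39 in SAMP8 to 6.08 with TG, with 5.71 in SAMR1. Sox9, a factor of astrocytes and progenitors, averaged 9.90 in SAMR1, 10.09 in SAMP8 and 10.53 with TG. Pax3, a partner of Zic1 in the neural crest, averaged 5.51, 5.78 and 5.60. Atoh1, a granule cell progenitor factor that Zic1 is known to restrain, stood at 3.17, 3.05 and 3.13. Between the strains, 11 of the 15 were lower in SAMP8 than in SAMR1, beside 49.0% of all probe sets. The median was -0.14, or -0.05 after quantile normalization, and that of the olfactory receptor probe sets was -0.10.

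Genes that mark the other cells and regions known for Zic expression were then listed, since a dissected hippocampus can hold parts of them. In a bulk sample, fewer cells of a type and less RNA per cell cannot be told apart. The meninges list had the order of groups seen for Zic1, with a mean log2 level over 22 genes of 6.08 in SAMR1, 6.39 in SAMP8 and 5.82 with TG. This order was not particular to the meninges. It was shared by the lists of smooth muscle (5.10, 5.32 and 4.85), striatum (7.33, 7.48 and 7.20) and hedgehog pathway genes (6.09, 6.18 and 6.03). In the smooth muscle list, most genes did not share the higher mean of SAMP8 over SAMR1. Of its 8 genes, 3 were higher and 4 lower in SAMP8, with a median of -0.04, while Acta2 was 2.19 higher. With TG 17 of the 22 meninges genes were lower and 5 higher, beside 48.3% and 50.0% of all probe sets. Among the 17, Foxc2, Foxd1, Tbx18, Slc13a4 and Col3a1 had all averages under 5.37, and Fmod and Slc22a6 their TG average. The 5 were Lum, Col1a1, Col1a2, Crabp2 and Aldh1a2, the last with all averages under 5.37. Of the 22, 4 were at least 2-fold lower in signal, beside 0.342% of all probe sets, a share that also applies to the lists below. The lists were chosen with earlier results of these data known, so such counts describe the chosen genes and are not a test. The median was -0.43, beside 0.01 for all probe sets. Between SAMP8 and SAMR1, 14 were higher and 7 lower, beside 49.5% and 49.0% of all probe sets. At least 2-fold higher in signal were 3, beside 0.838% of all probe sets. The median was 0.19, or 0.29 both with like signal subtracted and after quantile normalization. The part of meningeal RNA in the Zic1 values was not tested.

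The meninges genes did not all do so. Fmod, a collagen-binding proteoglycan, averaged 4.66 in SAMR1, 6.09 in SAMP8 and 4.21 with TG. Igf2, an insulin-like growth factor of meninges and vessels, averaged 7.09, 8.67 and 6.78, and Ogn, another small proteoglycan, 7.81, 8.53 and 7.43. These and Ptgds (9.39, 10.26 and 7.57) were the 4 that were 2-fold lower with TG. For Fmod this is a difference in signal, its SAMR1 and TG averages being under 5.37. Ptgds and Igf2, like Acta2, belong to the genes the study picked from these arrays. Foxc1, the factor that directs meningeal development, averaged 5.46, 6.35 and 5.57, and Islr, a stromal gene that was 2-fold higher in SAMP8 than in SAMR1, 6.55, 7.59 and 6.89. Slc22a8, an organic anion transporter gene, averaged 8.04, 8.12 and 7.37. The fibroblast collagens Col1a1 (5.73, 5.73 and 5.86) and Col1a2 (6.13, 5.49 and 5.66) were higher with TG than without, as was the proteoglycan Lum (7.42, 6.82 and 7.28). Their differences of 0.13, 0.17 and 0.46 were within the -0.43 to 0.61 given above for olfactory receptor probe sets. Several genes of the list that were lower were within it too, among them Slc6a13 (-0.15) and Slc13a3 (-0.29). That range comes from probe sets of lower signal, with a median of 4.05, so it is a rough gauge for these genes. The other collagen of the list, Col3a1 (3.39, 3.73 and 3.55), was lower with TG, with all averages under 5.37. Bgn, also a proteoglycan (5.48, 6.01 and 5.57), was lower with TG too. Dcn, a proteoglycan of fibroblasts, was highest in SAMR1, at 10.66, with 10.15 in SAMP8 and 9.38 with TG.

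Of 8 smooth muscle genes, 5 were lower and 3 higher with TG, with a median of -0.30, and Acta2 (5.52, 7.71 and 5.54) and the myosin kinase gene Mylk (5.77, 6.20 and 5.06) were 2-fold lower in signal, the TG average of Mylk being under the background limit of 5.37. The 3 that were higher, Tagln (4.74, 3.91 and 4.62), Cnn1 (3.58, 3.49 and 3.65) and Lmod1 (5.08, 4.90 and 4.98), had all their averages under that limit, as did Des (3.46, 3.46 and 3.15) among the 5 that were lower. For the choroid plexus, 6 of 12 genes were lower and 6 higher with TG, with a median of -0.02, and Ttr, the transthyretin gene that dominates this tissue, averaged 8.45, 9.33 and 10.05, highest in the group in which Zic1 was lowest. In the same list 3 genes had the order of groups of Zic1, namely Kl, the klotho gene, at 6.17, 6.84 and 6.05, the folate receptor gene Folr1 at 5.37, 5.74 and 5.34, and the bicarbonate transporter gene Slc4a5 at 5.59, 5.77 and 5.43. Sostdc1, a secreted antagonist of BMP, was higher with TG, at 6.32, 6.31 and 6.97. Enpp2, the autotaxin gene and the one of highest signal in the list, averaged 13.45, 13.70 and 13.45.

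Thalamic neuron genes had a median near that of all probe sets. Of 14, 8 were lower and 6 higher with TG, with a median of -0.03, and 2 were at least 2-fold lower. These were Prkcd, given above, and Plekhg1, at 8.21 in SAMR1, 9.19 in SAMP8 and 8.13 with TG. Tcf7l2, a defining factor of thalamic neurons, averaged 7.72, 8.48 and 8.44, and Slc17a6, their vesicular glutamate transporter, 7.48, 8.14 and 8.21. Both were higher in SAMP8 than in SAMR1, and their TG averages were within 0.07 of those of SAMP8. Ntng1, a netrin-related adhesion gene with the highest signal of the list, averaged 10.93, 10.93 and 10.52, and Calb2, the calretinin gene, 10.16, 9.97 and 9.66, so that both were lowest with TG. Their part in the Zic1 values was not tested.

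For the septum, 8 of 12 genes were lower with TG, beside 48.3% of all probe sets, with a median of -0.04 and differences from -0.50 to 0.22. Trpc4, the gene of highest signal in this list, averaged 9.50 in SAMR1, 9.44 in SAMP8 and 8.94 with TG, so that it was lowest with TG. Chat, the acetylcholine synthase that defines the cholinergic neurons of the septum, had low signal in all groups (2.72, 2.84 and 2.70). The habenula list had a median of 0.14 (0.07 after quantile normalization, beside 0.06 for the olfactory receptor probe sets), with 6 of 10 genes higher with TG and most of low signal. The list of olfactory bulb interneurons had a median of -0.08, with 7 of 11 lower. Cerebellar granule cell genes had a median of -0.17 with 7 of 10 lower, and Gabra6, the receptor subunit that defines those cells, stood at 3.14, 3.76 and 3.52. Striatal genes had a median of -0.28 with 10 of 12 lower and 0 of them 2-fold apart. Drd2, the dopamine receptor of indirect pathway neurons, averaged 4.29, 4.63 and 3.67, all under 5.37. The striatal genes of highest signal, Foxp1, Pde10a and Meis2, differed between TG-treated and nontreated SAMP8 by -0.04, 0.09 and -0.50. In the strain comparison Penk, the enkephalin precursor, at 8.03, 9.31 and 9.17, and the cerebellin gene Cbln1, at 6.37, 7.64 and 7.25, were 2-fold higher in SAMP8. Between TG-treated SAMP8 and SAMR1, Foxp2, a transcription factor, at 5.98, 5.28 and 4.74, was 2-fold lower in signal, with the averages of SAMP8 and TG under 5.37.

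Hippocampal neuron genes had a median of 0.00 with TG, with 8 of 16 higher and 7 lower and 0 of them 2-fold apart. Their strain median was 0.22, and 12 of 16 were higher in SAMP8, beside 49.5% of all probe sets. The 0.21 of the Zic members, which include Zic4 and Zic5 at background signal, was close to it. Strain medians of the meninges (0.19) and the thalamus (0.25, with 10 of 14 higher and 3 lower) were near it as well. Of the 16 hippocampal genes, Prox1 was the lowest with TG, at -0.85, and Zbtb20, a factor needed for hippocampal identity, averaged 13.26, 13.51 and 12.86. Spink8, a CA1 gene, was 2-fold higher in SAMP8 than in SAMR1, at 5.20, 6.50 and 6.33.

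**Figure D4:**
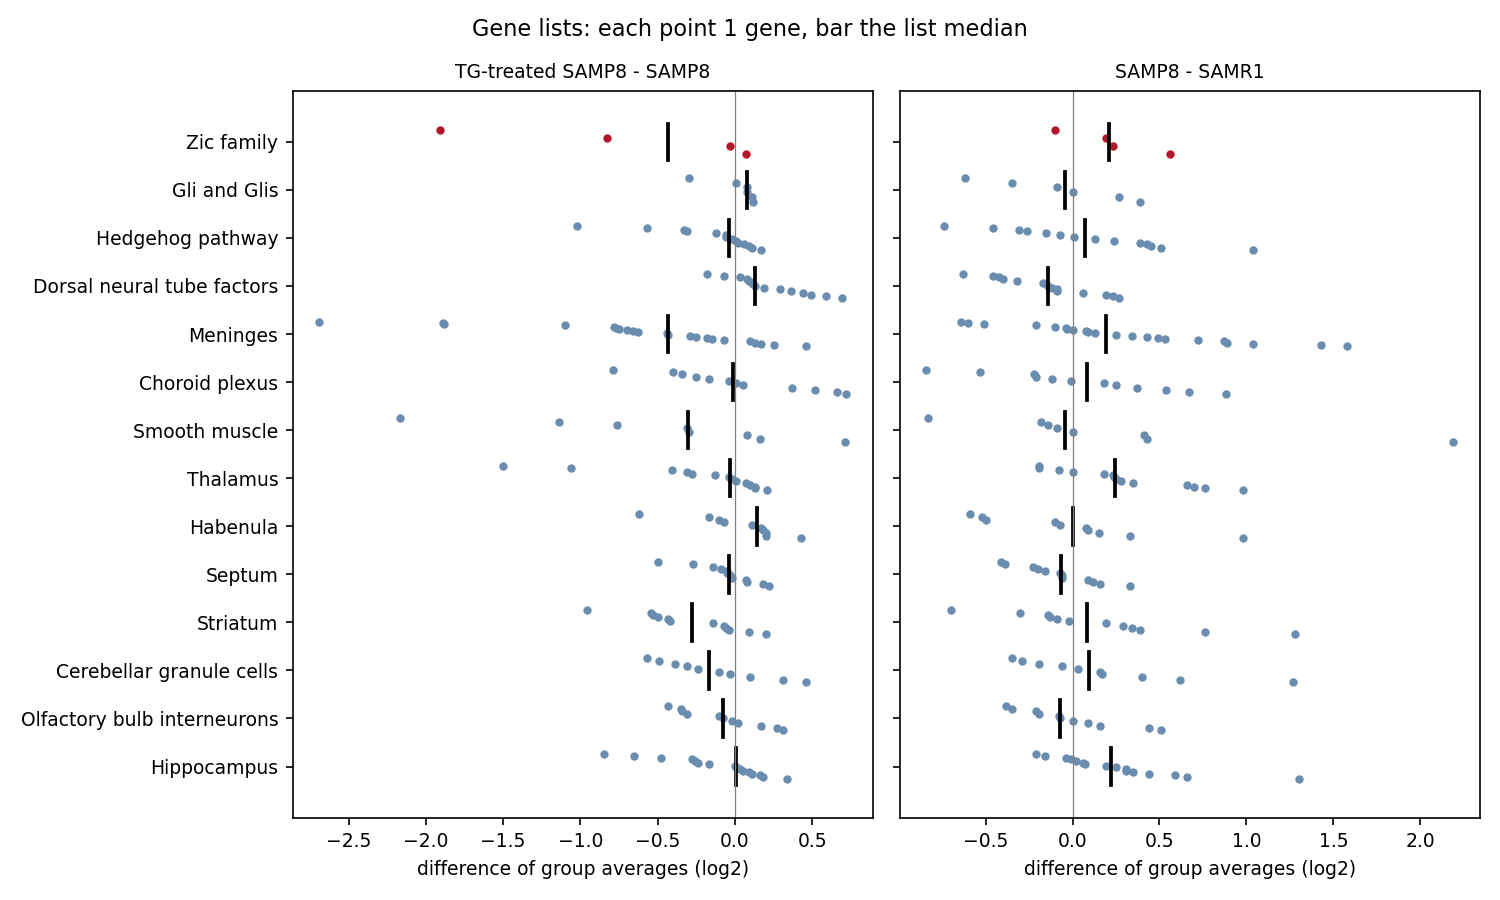
Differences of group averages (log2, x axis) for TG-treated minus nontreated SAMP8 (left) and SAMP8 minus SAMR1 (right), for the 14 gene lists (y axis). Each point is 1 gene, red for the 4 Zic genes and blue for the other lists, and the black bar is the median of the list. On the left the meninges median is at -0.43 with points on both sides of 0. The Zic median is also at -0.43, but its lowest point is Zic1, chosen for this difference, and Zic4 and Zic5 have background signal.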

How the data were processed

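The authors scanned Clariom S Mouse arrays, used TAC to normalize them by SST-RMA, and averaged each group. The deposited tables, 1 per comparison, hold these group averages in log2 signal, to 0.01, on the array annotation of mm10. They also hold the authors' signed fold changes, unadjusted and adjusted p-values, which were not used. Averages over 3 arrays limit the precision, and no value per array was used here.

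Differences of the averages were computed for 22206 probe sets, of which 3 carry no symbol and 836 several. TG-treated SAMP8 and SAMR1 were compared across the tables. For a gene with several probe sets the one with the highest mean signal was taken. Positions come from RefSeq (GRCm38), which holds 92.2% of the symbols. Alternatives were the median of each group subtracted, the median of the 501 probe sets of like signal subtracted, quantile normalization, other folds, the lowest 25% of signal left out and averaging of probe sets. The steps were tested on simulated data.

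The named genes are the members, list genes at 2-fold, some (up to 3 a list) of the others of highest signal, the 5 neighbours on each side and the 5 genes nearest in pattern. Other list genes (Foxc1, Col1a1, Col1a2, Col3a1, Bgn, Tagln, Cnn1, Lmod1, Des, Kl, Folr1, Slc4a5, Sostdc1, Ntng1, Calb2, Gli2, Glis2, Gli1, Atoh1, Pax3, Sox10, Prox1, Slc17a6, Tcf7l2, Chat, Gabra6 and Drd2) were picked once their values were known, as was which genes of highest signal to name. The same holds for the meninges genes Foxc2, Foxd1, Tbx18, Slc6a13, Slc13a3, Slc13a4, Slc22a6, Aldh1a2 and Crabp2. The members and lists were chosen with earlier results of these data known. Python 3.11.15 with numpy 2.4.6, pandas 2.3.3 and matplotlib 3.10.9 was used.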

Additional observations from a re-analysis of the deposited data

How the results depend on the processing

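No paired analysis was possible because the tables hold 1 average per group, and leaving out a mouse was not possible for the same reason. Of the 36 recomputed differences of the members, 5 moved by more than 0.1, all between SAMP8 and SAMR1. Zic1 was at 0.42 both with like signal subtracted and after quantile normalization, Zic4 at 0.35 after quantile normalization, and Zic5 at 0.01 and 0.02 in the same order of settings. Signs turned in 4, all of Zic5. The difference of Zic1 between TG-treated and nontreated SAMP8 ran from -1.94 to -1.82 and that of Zic2 from -0.88 to -0.83. With 1.5-fold or 1.2-fold in place of 2-fold, 2 members in place of 1 were lower with TG than in SAMP8, and 2 in place of 1 than in SAMR1. The added member is Zic2, whose TG average of 5.25 is under the background limit of 5.37, so this is a count of signal. At 1.2-fold, 1 in place of 0 was higher in SAMP8 than in SAMR1. Of 168 recomputed list medians 4 moved by more than 0.1 (Meninges to 0.29 and Habenula to 0.11 between SAMP8 and SAMR1, each under both of these settings), and 6 near 0 changed sign. The cause was not tested.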
